A study of Homo sapiens with 8 samples.

Results

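Cells hold reactive oxygen species and electrophiles in check with linked thiol systems, and the genes described here encode these systems in PANC-1, an established line of human pancreatic duct carcinoma cells. A list of 51 gene symbols was set out by role, namely NRF2 regulators (7 genes), thioredoxin (12), glutathione (12), NADPH supply (6) and detoxification (14), and 50 of them were matched to a row among the 20263 genes of the table that the authors deposited. SOD2 was matched to no row by its identifier in GENCODE release 44 and was not analysed here. Whether the table holds SOD2 under another identifier was not checked. Cells received 10 μM Eupalinolide B (EB), a compound of plant origin, or the vehicle dimethyl sulfoxide (DMSO) for 24 h, with 4 libraries in each group and no other line, dose or time. The columns are headed C and H. C was read as DMSO and H, a letter that the sources do not explain, as EB. Values are TPM, a gene's share of a library's transcripts after correction for transcript length, scaled to a common sum, and are given below in the order of replicates 1 to 4. TPM hold no read numbers, so the depth behind each value is unknown.

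Each library held 11353 to 11894 genes at 1 TPM or more. Mitochondrially encoded genes took 17.0% to 39.0% of the TPM with DMSO and 11.6% to 20.3% with EB. DMSO replicate 4, at 39.0%, stood apart from the other DMSO libraries (at most 21.1%). EB replicate 4, at 20.3%, was likewise the highest of its group (the other EB libraries at most 14.7%). Of 5 markers of duct epithelium, the keratins KRT8, KRT18 and KRT19 were abundant, at 513.7 to 1897 TPM, 342 to 1204 TPM and 135 to 583 TPM over the 8 libraries, and each was higher in every EB library than in every DMSO library. KRT7 (at most 0.297 TPM) and EPCAM (at most 0.387 TPM) were near 0, so the duct label held for 3 of its 5 markers. Of 11 markers of leukocytes, endothelium, acinar cells, islets and fibroblasts, 8 were at 0 in all libraries and the highest value was 0.305 TPM. In bulk RNA, fewer cells of a kind and less RNA per cell cannot be told apart.

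NRF2, the product of NFE2L2, is a transcription factor that KEAP1 holds at a low level by marking it for degradation. When cysteines of KEAP1 are modified by electrophiles or oxidants, NRF2 pairs with a small MAF protein and binds antioxidant response elements, which BACH1 otherwise occupies as a repressor. Thioredoxin and glutathione then carry electrons from NADPH to peroxiredoxins, glutathione peroxidases and glutaredoxins, which reduce peroxides and oxidized protein thiols, while transferases and ABC transporters conjugate and export reactive compounds.

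Differences between EB and DMSO were fitted by limma on the log2(TPM + 1) scale for 11725 genes that reached 1 TPM in 4 or more libraries, and a gene was called at an adjusted p under 0.05. Of the members, 48 were tested. GPX2, a glutathione peroxidase of the gut lining, and NNT, a mitochondrial source of NADPH, were below the filter. Among the tested members, 18 were called higher with EB (37.5%; 15.2% of all genes tested), 4 were called lower (8.33%; 25.1% of all genes tested) and 26 were not called. Their median log2 fold change was 0.35, against -0.11 over all genes tested. The list was chosen with earlier results of these data known, so these shares describe it and do not test it. The split of higher to lower calls depended on the settings: it was 18 to 4 here and 25 to 6 with median-ratio scaling. It was 17 to 7 after quantile normalization and 15 to 10 with nuclear genes rescaled among themselves. After correction for length and GC content of the transcripts it was 18 to 8. Without DMSO replicate 4 it was 18 to 9, and with the replicate numbers as a block it was 21 to 7. The shares of all genes tested belong to the split of 18 to 4 and are not given under the other settings. A change in the members therefore cannot be told from a change in the whole table. The 4 EB values lay all above the 4 DMSO values in 19 members (39.6%; 16.6% of all genes tested) and all below in 4 members (8.33%; 20.3% of all genes tested). At the thresholds the study used, p under 0.05 before adjustment and a log2 fold change beyond 1.5 in either direction, 2 members were higher (0.537% of all genes tested) and 0 lower (1.54% of all genes tested). With limma, 7 members were lower at an unadjusted p under 0.05 whatever their fold change. Summed over the 50 members, the level was 9359 to 11718 TPM with EB and 5931 to 8580 TPM with DMSO. These sums are shares of a total that includes mitochondrially encoded genes. Those genes took 11.6% to 20.3% of it with EB and 17.0% to 39.0% with DMSO.

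**Figure D1:**
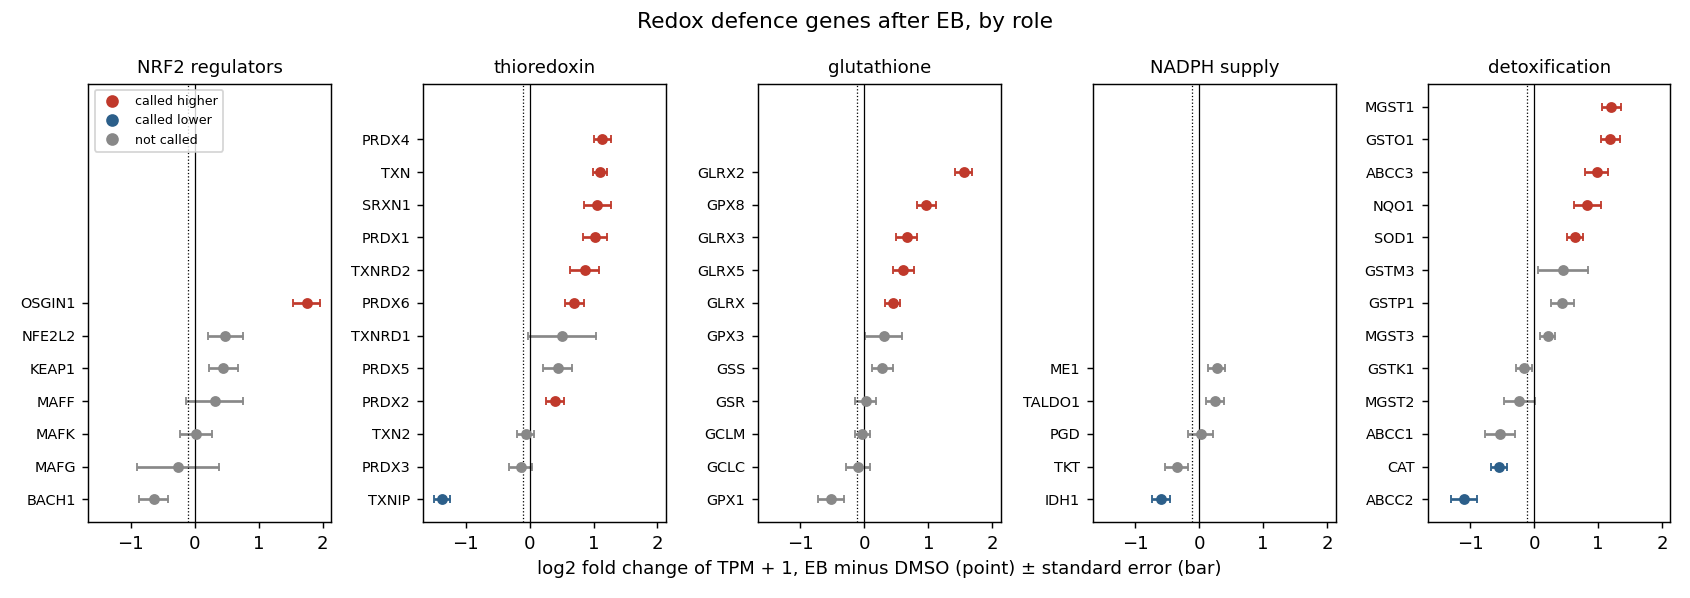
Log2 fold change of each tested member, EB minus DMSO on the log2(TPM + 1) scale, ordered within the 5 roles, with bars of 1 SE. Red and blue points are members called higher and lower at a limma adjusted p under 0.05, gray points were not called, and the dotted line is the median of all genes tested (-0.11). OSGIN1 (1.75) and GLRX2 (1.55) lie farthest to the right and TXNIP (-1.37) and ABCC2 (-1.10) farthest to the left.

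Among the 7 genes listed as NRF2 regulators, only OSGIN1 was called with these settings, a share of 14.3% called higher against 15.2% of all genes tested. This call is in a gene known as an NRF2 target, and the other 6 genes were not called. Lower calls numbered 0, against 25.1% of all genes tested. OSGIN1 (chr16:83931311-83966332, hg38, gene positions from GENCODE release 44), a growth inhibitor known as an NRF2 target, stood at 87.9, 59.8, 64.3 and 59.2 TPM with EB and at 21.7, 22.0, 22.8 and 12.3 TPM with DMSO. Every EB library lay above every DMSO library, and DMSO replicate 4 was lowest (log2 fold change 1.75, SE 0.21, limma adjusted p = 0.000396). NFE2L2 itself (chr2:177218667-177392756) held 35.9, 43.6, 20.8 and 42.3 TPM with EB and 24.3, 36.7, 21.3 and 18.4 TPM with DMSO. EB replicates 1 and 3 fell within the DMSO range, and the difference was not called (log2 fold change 0.48, SE 0.27, limma adjusted p = 0.177). Without EB replicate 3 it was called, at a log2 fold change of 0.71.

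KEAP1, the adaptor that directs NRF2 to degradation, was measured at 107, 73.8, 75.6 and 54.0 TPM with EB and 65.5, 56.4, 62.2 and 39.1 TPM with DMSO. The lowest EB library lay below 3 of the DMSO libraries (log2 fold change 0.45, SE 0.23, limma adjusted p = 0.133). BACH1, the repressor at the same DNA elements, was at 9.18, 10.3, 6.18 and 6.24 TPM with EB and at 11.3, 18.3, 14.01 and 8.86 TPM with DMSO. The groups overlapped, and its adjusted p lay just above the threshold (log2 fold change -0.64, SE 0.23, limma adjusted p = 0.0502). Both stood on the other side of the threshold under some settings: KEAP1 was called higher with median-ratio scaling (0.57) and with the length and GC trend removed (0.49). BACH1 was called lower with median-ratio scaling (-0.53), with nuclear genes rescaled (-0.82), without DMSO replicate 4 (-0.80) and without EB replicate 2, but stood at -0.24 (limma adjusted p = 0.267) with the length and GC trend removed. The small MAF genes, whose products pair with NRF2 or BACH1 on DNA, varied widely between libraries. Their log2 fold changes were 0.31 (adjusted p = 0.6) for MAFF, -0.26 (adjusted p = 0.763) for MAFG and 0.02 (adjusted p = 0.96) for MAFK.

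**Figure D2:**
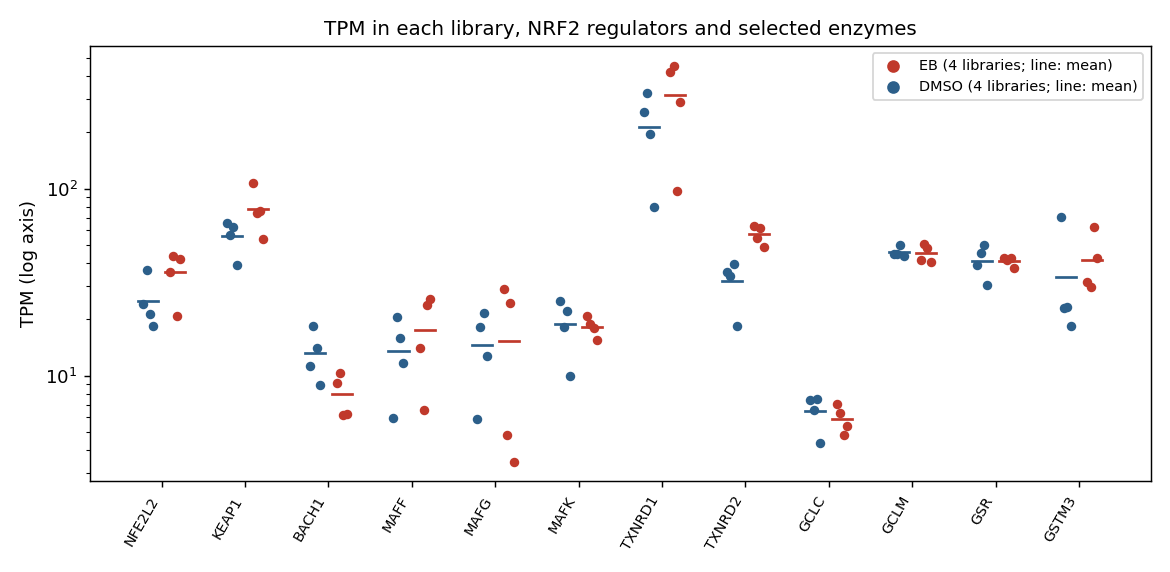
TPM on a log axis in each of the 4 EB and 4 DMSO libraries for 6 NRF2 regulators and 6 enzymes, with a line at each group mean. The groups overlap for every gene drawn except TXNRD2, and the EB values of MAFG and TXNRD1 spread most widely.

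The letters TGACNNNGC, the core of the antioxidant response element, were searched on both strands in the RefSeq promoter windows (GRCh38.p14), which span 250 bases before to 50 after a start site. Of the 51 members, 40 had a window and 11 of those held the letters (27.5%), against 1820 of 9488 tested genes with a window (19.2%). Counted by window rather than by gene, 4687 of all 35116 windows held them (13.3%). This last share is not comparable with the others, since a gene can have several windows. The share was 2 of 13 among members called higher (15.4%), 1 of 4 among those called lower (25%) and 7 of 20 among those tested and not called (35.0%). The stretches below show matches upstream of the start site in members of each kind, read 5′ to 3′ on the strand of the gene, with the matched letters in capitals (reversed matches begin with GC; the stretches of KEAP1 overlap). GSTO1 is a member called higher, IDH1 one called lower, and the others were not called.
GSTO1 first match, chr10:104254646-104254694, plus strand: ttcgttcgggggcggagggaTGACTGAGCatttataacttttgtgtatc
GSTO1 second match, chr10:104254711-104254759, plus strand: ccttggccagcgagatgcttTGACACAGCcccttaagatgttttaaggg
IDH1, chr2:208255186-208255234, minus strand: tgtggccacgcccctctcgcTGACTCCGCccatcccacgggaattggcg
GCLM, chr1:93909436-93909484, minus strand: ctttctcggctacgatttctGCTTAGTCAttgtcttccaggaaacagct
KEAP1 first match, chr19:10502797-10502845, minus strand: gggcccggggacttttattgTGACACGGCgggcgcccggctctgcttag
KEAP1 second match, chr19:10502774-10502822, minus strand: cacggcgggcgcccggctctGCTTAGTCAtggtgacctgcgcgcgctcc
TXNRD1 first window, chr12:104215660-104215708, plus strand: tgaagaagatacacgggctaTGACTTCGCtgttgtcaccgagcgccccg
TXNRD1 second window, chr12:104286910-104286958, plus strand: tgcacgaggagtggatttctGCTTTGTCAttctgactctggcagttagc
GSTP1, chr11:67583726-67583774, plus strand: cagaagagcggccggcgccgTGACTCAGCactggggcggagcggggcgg
ME1, chr6:83431160-83431208, minus strand: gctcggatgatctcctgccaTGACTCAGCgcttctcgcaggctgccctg
In GSTP1 and ME1 the match reads TGACTCAGC, and the distance from the first matched base to the start site is 66 and 137 bases. A match of letters is a description of the window and not a measured binding site, and elements outside the windows were not searched.

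The thioredoxin system held 7 members called higher of 12 tested (58.3%, against 15.2% of all genes tested). It also held 1 called lower (8.33%, against 25.1% of all genes tested) and 4 not called. TXN (chr9:110243810-110256507), the cytosolic thioredoxin, was at 558, 511, 600.4 and 532 TPM with EB and at 263, 250.4, 242 and 266 TPM with DMSO. Its lowest EB library exceeded its highest DMSO library by a wide margin (log2 fold change 1.10, SE 0.11, limma adjusted p = 0.00017). TXNIP (chr1:145992435-145996579), which binds thioredoxin and blocks its active site, was at 29.4, 32.3, 28.7 and 28.3 TPM with EB and 82.1, 83.5, 79.7 and 69.1 TPM with DMSO. Every EB library was below every DMSO library, and this was the largest fall among the members (log2 fold change -1.37, SE 0.12, limma adjusted p = 6.88e-05).

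Thioredoxin reductases return thioredoxin to its reduced form with electrons from NADPH. TXNRD2, the mitochondrial reductase, was at 63.2, 54.1, 61.4 and 48.5 TPM with EB and at 35.6, 34.1, 39.5 and 18.4 TPM with DMSO, and the groups did not overlap (log2 fold change 0.86, SE 0.22, limma adjusted p = 0.0134). TXNRD1, the cytosolic reductase, was at 422, 454, 96.5 and 291 TPM with EB and at 255, 322, 196 and 80.1 TPM with DMSO. EB replicate 3 was lower than 3 DMSO libraries, and the difference was not called (log2 fold change 0.51, SE 0.53, limma adjusted p = 0.469). TXN2, the mitochondrial thioredoxin, had a log2 fold change of -0.06 (adjusted p = 0.723) and was called lower with nuclear genes rescaled (-0.24) and with the length and GC trend removed (-0.32). SRXN1, which repairs overoxidized peroxiredoxins, was at 120.1, 108, 107 and 83.5 TPM with EB and 56.0, 57.0, 58.4 and 31.7 TPM with DMSO. The groups were apart, with DMSO replicate 4 again the lowest (log2 fold change 1.06, SE 0.21, limma adjusted p = 0.00393).

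Peroxiredoxins reduce hydrogen peroxide with a reactive cysteine and take their electrons mostly from thioredoxin. Together the 6 genes summed to 2886 to 4031 TPM with EB and 1818.5 to 2606 TPM with DMSO. This sum, too, is a share of a total that includes mitochondrially encoded genes. PRDX1, a cytosolic member, was at 1464, 1254, 1538 and 834 TPM with EB and at 623, 672, 531 and 617 TPM with DMSO. It was the most abundant peroxiredoxin in each EB library, and its groups did not overlap (log2 fold change 1.02, SE 0.19, limma adjusted p = 0.00327). PRDX4, the member of the endoplasmic reticulum, was at 364, 329, 349 and 291 TPM with EB and at 169.8, 154, 157 and 123 TPM with DMSO, again without overlap (log2 fold change 1.14, SE 0.14, limma adjusted p = 0.000397). PRDX6, which uses glutathione in place of thioredoxin, was at 316, 288, 336 and 276 TPM with EB and at 221, 192, 195 and 146 TPM with DMSO, and every EB library was higher (log2 fold change 0.70, SE 0.15, limma adjusted p = 0.0057).

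The other peroxiredoxins moved less. PRDX2, also cytosolic, had means of 799 ± 38.5 TPM with EB and 611 ± 92.5 TPM with DMSO (SD, n = 4) and was called higher by a narrow margin (log2 fold change 0.40, SE 0.14, limma adjusted p = 0.0448). The call was lost in 6 of the 8 fits that leave out a library, all but those without DMSO replicate 1 or 4, and with a pseudocount of 0.1. PRDX3, the mitochondrial member, had a log2 fold change of -0.14 (adjusted p = 0.575), and PRDX5, found in several compartments, of 0.44 (adjusted p = 0.147), which was called higher with median-ratio scaling (0.56).

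**Figure D3:**
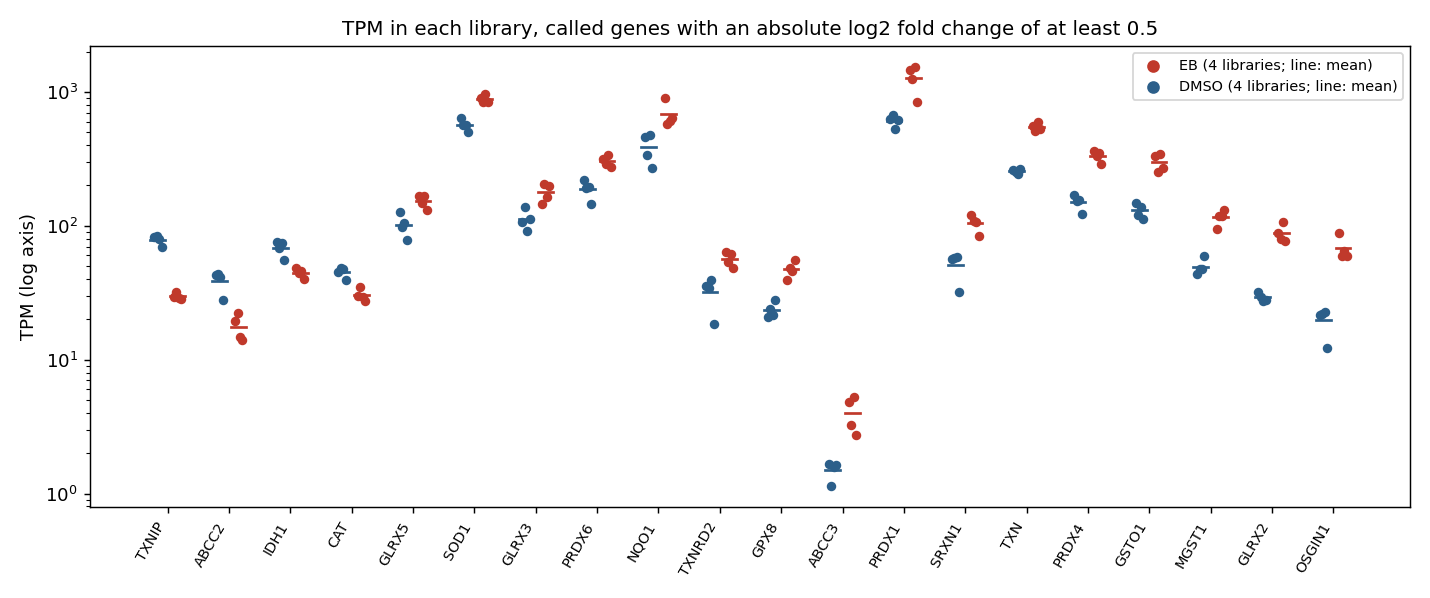
TPM on a log axis in each EB and DMSO library for the called members with an absolute log2 fold change of at least 0.5, with a line at each group mean. Each gene drawn has EB and DMSO libraries that do not overlap, and TXNIP, ABCC2, IDH1 and CAT are the genes with the EB points below.

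In the glutathione system, 5 of 11 tested members were called higher (45.5%, against 15.2% of all genes tested). Lower calls numbered 0, against 25.1% of all genes tested, and 6 members were not called. With limma, 1 member had an unadjusted p under 0.05 in the lower direction, GPX1. The glutaredoxins, small oxidoreductases that use glutathione, were all called higher. GLRX2 (chr1:193090866-193106114), which is mainly mitochondrial, was at 88.1, 80.2, 106 and 76.8 TPM with EB and 31.8, 29.3, 27.6 and 28.0 TPM with DMSO. The highest DMSO library was below the lowest EB library (log2 fold change 1.55, SE 0.13, limma adjusted p = 7.45e-05). GLRX3, a cytosolic protein of iron-sulfur handling, was at 145, 204, 163 and 199.7 TPM with EB and at 107, 139, 91.9 and 113 TPM with DMSO (log2 fold change 0.66, SE 0.17, limma adjusted p = 0.0125). GLRX5, its mitochondrial counterpart, was at 168, 148, 168 and 132 TPM with EB and 126, 97.7, 105 and 78.3 TPM with DMSO (log2 fold change 0.61, SE 0.16, limma adjusted p = 0.0151). Neither overlapped between groups. GLRX, the cytosolic dithiol form, had a log2 fold change of 0.44 (adjusted p = 0.0161). GLRX, GLRX3 and PRDX2 were no longer called with nuclear genes rescaled or with the length and GC trend removed, nor GLRX without DMSO replicate 2, nor GLRX3 and PRDX2 after quantile normalization.

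GPX8, a peroxidase of the endoplasmic reticulum membrane, was at 39.1, 48.8, 45.9 and 55.4 TPM with EB and at 20.9, 23.9, 21.6 and 28.1 TPM with DMSO. The groups were separate (log2 fold change 0.97, SE 0.15, limma adjusted p = 0.00117). GPX1, the widespread cytosolic selenoenzyme, had means of 111 ± 16.5 TPM with EB and 163 ± 42.0 TPM with DMSO (SD, n = 4) and was not called (log2 fold change -0.52, SE 0.20, limma adjusted p = 0.0642), but was called lower under median-ratio scaling, quantile normalization, rescaled nuclear genes, removal of the length and GC trend (-0.84) and without DMSO replicate 4 (-0.70). GPX3, the secreted form, had a log2 fold change of 0.30 (adjusted p = 0.436).

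Glutathione is made by glutamate-cysteine ligase, of which GCLC is the catalytic and GCLM the modifier subunit, and then by the synthetase GSS. GCLC was at 7.02, 6.35, 4.79 and 5.35 TPM with EB and at 7.37, 6.55, 7.46 and 4.36 TPM with DMSO, and GCLM at 41.4, 50.5, 48.1 and 40.4 TPM and 44.8, 44.8, 50.1 and 43.8 TPM. The groups overlapped for both subunits, with log2 fold changes of -0.10 (adjusted p = 0.673) for GCLC and -0.03 (adjusted p = 0.865) for GCLM. The sign of both depended on the scaling, and with the length and GC trend removed GCLM was called higher, at 0.30. GSS had a log2 fold change of 0.28 (adjusted p = 0.192) and was called higher with median-ratio scaling (0.39). For GSR, which reduces oxidized glutathione with NADPH, it was 0.02 (adjusted p = 0.928). GPX2 was at 0 to 0.190 TPM in all libraries.

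Of the 5 tested genes of NADPH supply, 0 were called higher, against 15.2% of all genes tested. Lower calls numbered 1, against 25.1% of all genes tested, and 4 genes were not called. With only 5 genes, such counts cannot show whether this role differed from all genes tested. These counts depended on the scaling for 3 of the 4 (TALDO1, TKT and ME1), and with limma none was higher at an unadjusted p under 0.05 as deposited. IDH1, the cytosolic isocitrate dehydrogenase that forms NADPH, was at 48.5, 44.7, 45.7 and 39.7 TPM with EB and at 75.3, 68.3, 74.2 and 55.8 TPM with DMSO. Every EB library was lower (log2 fold change -0.60, SE 0.14, limma adjusted p = 0.00734). PGD, of the oxidative pentose phosphate branch, had a log2 fold change of 0.02 (adjusted p = 0.957), with a sign that turned under quantile normalization (-0.21). TALDO1 and TKT, of the non-oxidative branch, had 0.24 (adjusted p = 0.202) and -0.35 (adjusted p = 0.146). TALDO1 was called higher with median-ratio scaling (0.35). TKT was called lower with quantile normalization (-0.60), nuclear genes rescaled (-0.53), the length and GC trend removed (-0.25) and without DMSO replicate 4 (-0.52). ME1, the cytosolic malic enzyme, had 0.27 (adjusted p = 0.106) and was called higher with median-ratio scaling (0.38), quantile normalization (0.44) and the length and GC trend removed (0.43). NNT was nearly silent, at 0.227, 0.116, 0.364 and 0.0549 TPM with DMSO and 0.0117, 0.0744, 0.0119 and 0 TPM with EB.

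Among the 13 tested detoxification genes, 5 were called higher (38.5%, against 15.2% of all genes tested). Another 2 were called lower (15.4%, against 25.1% of all genes tested) and 6 were not called. NQO1, a quinone reductase and a standard NRF2 target, was at 908, 576, 605 and 634 TPM with EB and at 458, 337, 478 and 272 TPM with DMSO. The groups were apart (log2 fold change 0.83, SE 0.21, limma adjusted p = 0.0135). MGST1, a membrane-bound glutathione transferase, was at 95.2, 118, 119 and 130.5 TPM with EB and 43.4, 47.3, 47.7 and 59.2 TPM with DMSO, and GSTO1, an omega-class transferase, at 333, 252, 343 and 268 TPM and 149, 120.1, 139 and 113 TPM. Each EB library exceeded each DMSO library for MGST1 (log2 fold change 1.21, SE 0.15, limma adjusted p = 0.000384) and for GSTO1 (log2 fold change 1.19, SE 0.15, limma adjusted p = 0.000498).

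Other transferases were not called with the values as deposited. GSTP1, the most abundant of them, had means of 1114 ± 177 TPM with EB and 826 ± 169.6 TPM with DMSO (SD, n = 4; log2 fold change 0.44, limma adjusted p = 0.0811) and was called higher with median-ratio scaling (0.56). MGST3 lay higher in all EB libraries than in all DMSO libraries by a small amount, 0.21 (adjusted p = 0.159), and was called with median-ratio scaling (0.32) and with no filter on low values. GSTK1, GSTM3 and MGST2 had -0.16 (adjusted p = 0.365), 0.45 (adjusted p = 0.384) and -0.23 (adjusted p = 0.478). GSTK1 was called lower with quantile normalization (-0.38), nuclear genes rescaled (-0.35), the length and GC trend removed (-0.48) and without DMSO replicate 4 (-0.27). GSTM3 belongs to a family of close paralogs between which reads can be shared, and 1 library, DMSO replicate 1, set its value: without it, GSTM3 was called higher at 0.86.

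SOD1 and CAT, which remove superoxide and hydrogen peroxide, went in opposite directions. SOD1, the cytosolic superoxide dismutase, was at 906, 835, 959 and 842 TPM with EB and 642, 562, 571 and 502 TPM with DMSO (log2 fold change 0.64, SE 0.12, limma adjusted p = 0.00335). CAT, peroxisomal catalase, was at 29.7, 35.1, 29.6 and 27.4 TPM with EB and 44.9, 48.3, 47.6 and 39.3 TPM with DMSO (log2 fold change -0.55, SE 0.13, limma adjusted p = 0.00818). Neither gene overlapped between groups. The ABCC transporters, which export conjugates, also differed among themselves. ABCC2 (chr10:99782640-99852594) was at 19.4, 22.4, 14.7 and 14.02 TPM with EB and at 42.6, 43.5, 41.5 and 27.7 TPM with DMSO, lower in every EB library (log2 fold change -1.10, SE 0.20, limma adjusted p = 0.00246). ABCC3, at a much lower level, was at 4.82, 3.24, 5.22 and 2.73 TPM with EB and 1.67, 1.13, 1.57 and 1.63 TPM with DMSO, higher in every EB library (log2 fold change 0.98, SE 0.18, limma adjusted p = 0.00298). At such low TPM the pseudocount holds the fold change down, and it was 1.33 with a pseudocount of 0.1. ABCC1 had a log2 fold change of -0.53 (adjusted p = 0.0927) and was called lower with nuclear genes rescaled (-0.71), without DMSO replicate 4 (-0.73) and without EB replicate 2.

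Ratios of genes with opposed or parallel roles were taken within each library, since the scaling of a library cancels in them apart from the pseudocount. A trend on transcript length, described below, does not cancel between transcripts of unlike length, such as TXN (737 nt) and TXNIP (2905 nt). The difference of log2(TPM + 1) between TXN and TXNIP was 4.17 ± 0.17 with EB and 1.69 ± 0.16 with DMSO (SD, n = 4), a shift of 2.48. PRDX1 against PRDX3 shifted by 1.16, from 1.86 ± 0.30 to 3.02 ± 0.18, and NFE2L2 against BACH1 by 1.12, from 0.89 ± 0.21 to 2.0 ± 0.41 (SD, n = 4). In these 3 ratios the groups did not overlap, and each gave p = 0.0286 in an exact two-sided permutation test, the smallest p that 70 assignments of the libraries allow. Adjusted over the 7 ratios computed, this became p = 0.0667 in the exact test, so that none passed 0.05. With the length and GC trend removed, the log2 fold changes were 0.74 for TXN and -1.27 for TXNIP (as deposited 1.10 and -1.37). They were 0.71 and -0.33 for PRDX1 and PRDX3 (as deposited 1.02 and -0.14). For NFE2L2 and BACH1 they were 0.49 and -0.24 (as deposited 0.48 and -0.64). The shifts of NFE2L2 against KEAP1 (0.02), GCLM against GCLC (0.07), MAFF against MAFG (0.57) and TXNRD1 against TXNRD2 (-0.35) lay within the spread of the libraries, with exact p from 0.657 to 1.0.

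**Figure D4:**
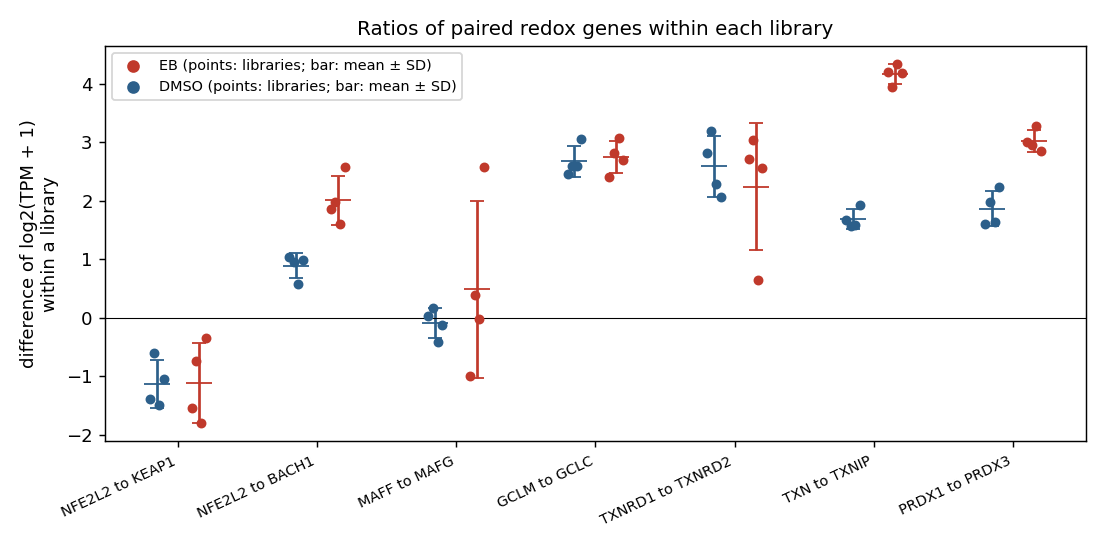
Difference of log2(TPM + 1) between paired members within each library, with points for the 4 EB and 4 DMSO libraries and bars for mean ± SD. TXN to TXNIP, PRDX1 to PRDX3 and NFE2L2 to BACH1 are separate between groups, and the other ratios overlap.

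A further 67 genes of the same pathways gave 62 tested, of which 17 were called higher (27.4%; 15.2% of all genes tested), 6 lower (9.68%; 25.1% of all genes tested) and 39 were not called, with a median log2 fold change of 0.08. This list, too, was written with earlier results of these data known, and its shares are a description. By role, the counts of higher and lower calls were 2 and 2 of 7 for NRF2 regulators, 5 and 1 of 14 for thioredoxin, 4 and 0 of 10 for glutathione, 2 and 1 of 13 for NADPH supply, and 4 and 2 of 18 for detoxification. The lower calls rose to 15 without DMSO replicate 4 and the higher calls ranged from 12 to 17 over the fits that leave out a library. The largest absolute changes among those called were in PIR, CHAC1 and SESN3. PIR, an iron-binding nuclear protein, had a log2 fold change of 1.3 (limma adjusted p = 0.000106), with 34.5 ± 1.55 TPM with EB and 13.5 ± 1.42 TPM with DMSO (SD, n = 4). CHAC1, which degrades glutathione, had 1.28 (limma adjusted p = 0.0299), with libraries that overlapped between groups and a call lost in 5 of 8 fits that leave out a library, among them the fit without DMSO replicate 4 (adjusted p = 0.0606). SESN3, a sestrin, had -1.25 (limma adjusted p = 0.000308).

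Over all genes, the fold change followed transcript length. Its median was 0.41 in the shortest of 10 length groups (up to 1225 nt) and fell to -0.54 in the longest (7315 nt or more). The members had shorter transcripts, with a median of 1931 nt against 3222 nt for all tested nuclear genes, and the part of this trend in their changes was not tested. Once each library was corrected for the trend on length and GC content, 19 of the 22 called members were called in the same direction, and several changed in size. SOD1 went from 0.64 to 0.32, GLRX5 from 0.61 to 0.30, ABCC2 from -1.10 to -0.67 and TXN from 1.10 to 0.74, while ABCC3 went from 0.98 to 1.37. With quantile normalization SOD1 stood at 0.40 and GLRX, at 0.44 as deposited, at 0.75. The exons of 12 members overlap those of another gene of the table, among them OSGIN1, SRXN1, PRDX1, TXNRD2 and GLRX2 of the called members. Those not called include NFE2L2, BACH1, MAFF and MAFK, with a gene on the opposite strand, and MAFG, with a gene on the same strand. For OSGIN1 and SRXN1 the other gene is on the same strand, so counting by strand would not separate the reads. For PRDX1, TXNRD2 and GLRX2 it is on the opposite strand, and whether counting used strand is not given in the sources used here. Reads in these overlaps could belong to the neighbor.

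**Figure D5:**
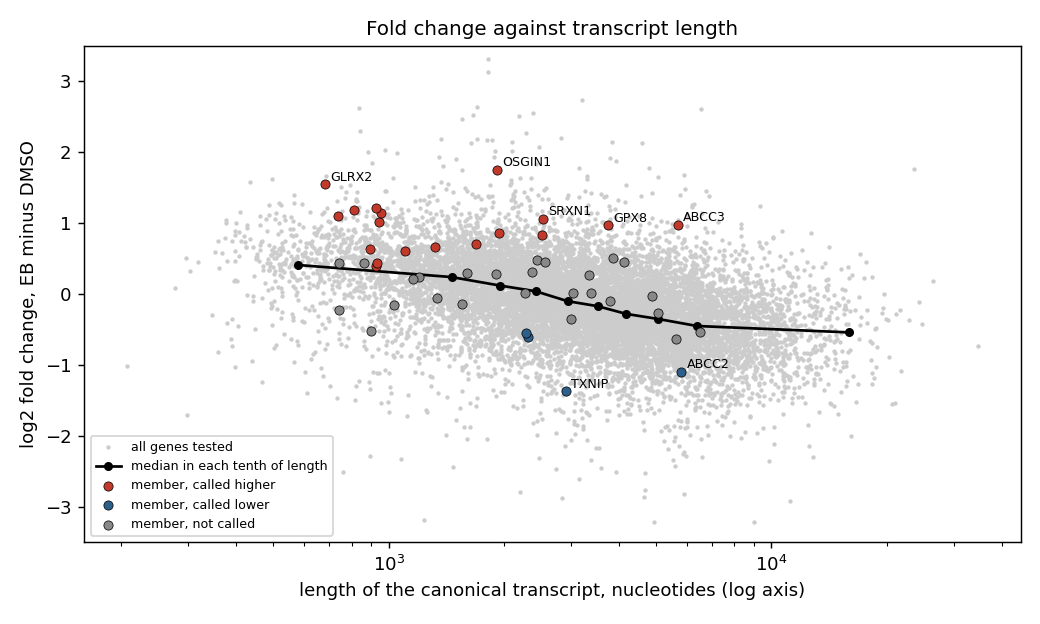
Log2 fold change of all genes tested (light gray) and of the members (large points) against transcript length in nucleotides on a log axis, with a line joining the medians of the 10 length groups of all genes tested. The medians run from 0.41 to -0.54. Members called higher are red, members called lower blue and members not called dark gray.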

How the data were processed

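RNA sequencing of PANC-1 cells after 24 h in DMSO or 10 μM EB was described as 4 biological replicates per group, with triplicates also mentioned; 4 libraries per group were used here. The authors deposited TPM, normalized within each library by transcript length and total, for 20263 genes. Their methods name CLC Genomics Workbench, HISAT2 and StringTie, and both GrCM38 and hg38; all identifiers were human. Of these, 20148 matched a symbol in GENCODE release 44 (hg38) and 115 did not. No read counts were used, so depth and counting error are unknown.

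EB and DMSO were compared by limma 3.58.1 (R 4.3.3; lmFit, eBayes without trend, prior degrees of freedom 3.88) on log2(TPM + 1), with Benjamini-Hochberg adjustment over the 11725 genes that reached 1 TPM in 4 or more libraries. The fit was tried on simulated data with independent normal noise for each gene. These data held no trend on transcript length and no effect shared within a library, so they do not bear on either. Members called at an adjusted p under 0.05 were named, with TPM per library where the absolute log2 fold change was at least 0.5 and for NFE2L2, KEAP1 and BACH1; of the pathway genes outside the list, the 3 largest called changes were named. The libraries shown for GCLC, GCLM, TXNRD1 and NNT were added after their values were seen. The members and lists were chosen with earlier results of these data known. Ratios were tested by an exact two-sided permutation test over 70 assignments of the libraries; the ratio of SOD1 to SOD2 could not be computed. The settings varied were the pseudocount (0.1), the filter (none, or 5 TPM) and the scaling (median-ratio, quantile normalization, nuclear genes rescaled to a common sum, removal of the trend on length and GC content by a spline with 5 degrees of freedom), besides an intensity trend in eBayes, a replicate block and leaving out each library. Promoter windows came from RefSeq (GRCh38.p14). Python 3.11.15, numpy 2.4.6, pandas 2.3.3, scipy 1.17.1 and matplotlib 3.10.9 were used.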

Additional observations from a re-analysis of the deposited data

Results flagged for a closer look

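Of 96 groups of 4 libraries, 7 held a library far from the other libraries of its group by Dixon's criterion (the gap to the nearest library over the range of the group), which chance alone gives in about 1 in 20 groups. DMSO replicate 4, in which mitochondrially encoded genes took 39.0% of the TPM, was the low library in 4 of them: OSGIN1 at 12.3 TPM (others 21.7 to 22.8), SRXN1 at 31.7 TPM (others 56.0 to 58.4), ABCC1 at 13.6 TPM (others 23.5 to 24.3) and ABCC2 at 27.7 TPM (others 41.5 to 43.5). Without this library, OSGIN1, SRXN1 and ABCC2 kept their calls and directions. GSTM3 stood at 70.2 TPM in DMSO replicate 1 (others 18.4 to 23.4), GCLM at 50.1 TPM in DMSO replicate 3 (others 43.8 to 44.8) and GSS at 107 TPM in EB replicate 4 (others 132 to 137).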

How the results depend on the processing

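Of the 22 called members, 20 were called in each of the 8 fits that leave out a library, the exceptions being GLRX and PRDX2. Higher calls among the members ranged from 16 to 19 over these fits and from 15 to 25 over the other settings (25 with median-ratio scaling). Lower calls were less stable: 4 as reported, 7 under quantile normalization, 10 with nuclear genes rescaled, 8 with the length and GC trend removed, and 4 to 9 when a library was left out (9 without DMSO replicate 4). Members with all EB values below all DMSO values numbered 8, 10 and 8 under the same scalings and 4 to 10 when a library was left out (10 without DMSO replicate 4). Lower calls among the other pathway genes numbered 3 at a TPM of at least 5, 10 under quantile normalization, 19 with nuclear genes rescaled, 10 with the length and GC trend removed, and 4 to 15 when a library was left out. At the study's thresholds, 1 member was higher and 1 lower with nuclear genes rescaled, 1 was higher with the length and GC trend removed, and 1 to 2 were higher when a library was left out (1 without EB replicate 3). The cause of these shifts was not tested. The median log2 fold change over all genes was -0.01 under median-ratio scaling, 0.02 under quantile normalization, -0.28 with nuclear genes rescaled and 0.02 with the trend removed, against -0.11 here. Shares of all genes called under each of these settings are not given, so the counts above have no background beside them.

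Pearson's r of the deviations from the group means between samples that share a number was 0.183, 0.0463, -0.0879 and 0.284 for replicates 1 to 4. It was above 0.1 for 2 of the 4 numbers, and the main fit did not take the numbers as pairs. The labels do not say whether libraries that share a number belong together. The mitochondrial share of the TPM ranked them alike in both groups, with replicate 1 lowest, then 3 and 2, and replicate 4 highest. With the replicate block, 21 members were called higher and 7 lower, the added calls being KEAP1, PRDX5, GSTP1, BACH1, GPX1 and ABCC1, and 10 other pathway genes were called lower.

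Signs turned only in members that were not called. Under median-ratio scaling the log2 fold change was 0.05 for TXN2 and 0.08 for GCLM, under quantile normalization 0.20 for GCLC and -0.21 for PGD, and with nuclear genes rescaled -0.16 for MAFK, -0.16 for GSR and -0.17 for PGD. With the trend removed it was 0.09 for MAFG, 0.12 for GCLC, 0.30 for GCLM, -0.03 for PGD, -0.06 for TALDO1 and -0.07 for MGST3. Leaving out a library gave -0.08 to 0.02 for GCLM, -0.11 to 0.12 for GSR, -0.01 to 0.69 for MAFF, -0.71 to 0.20 for MAFG, -0.24 to 0.17 for MAFK and -0.16 to 0.13 for PGD. The ratio of GCLM to GCLC shifted by -0.23 under quantile normalization; leaving out a library gave -0.04 to 0.20 for it, -0.23 to 0.26 for NFE2L2 to KEAP1, -0.12 to 1.07 for MAFF to MAFG and -0.61 to 0.19 for TXNRD1 to TXNRD2 (0.19 without EB replicate 3). The ratios were not refitted with a filter, an intensity trend or a block, none of which enters them.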

Other observations

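Of the pathway genes outside the list, 5 were below the filter on low values and had no test. SLC7A11, the cystine transporter that feeds glutathione synthesis, was at 0.898 to 1.59 TPM with EB and at 0.165 to 0.334 TPM with DMSO, so that its groups did not overlap. BACH2, GPX7, ABCG2 and SOD3 were at or near 0.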
